A study of Mus musculus with 4 samples.

Results

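Immunoglobulin constant-region genes and the genes that mark antibody-secreting plasma cells were followed in mouse brain slices before and after photothrombotic (PT) injury. The set held 10 of the 32285 genes listed in the count tables. Igkc and Iglc2 encode constant regions of the kappa and lambda light chains, Ighm, Ighg1, Ighg2b, Ighg2c, Ighg3 and Igha those of the IgM, IgG and IgA heavy chains, Jchain the protein that joins IgA and IgM into polymers, and Mzb1 a chaperone of antibody assembly in the endoplasmic reticulum. These genes were selected on their counts in the same slices. The selection used unique molecular identifiers (UMIs, each standing for 1 captured transcript) per 10000 UMIs and the number of positive spots, in spots with at least 5 Col1a1 UMIs per 10000 and in spots without a Col1a1 UMI. Levels, positive spots and fold changes of the 10 genes in these contrasts are therefore given as a description, with no test. Col1a1 encodes a chain of collagen 1, and spots with at least 5 Col1a1 UMIs per 10000 are called fibrotic here.

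Transcripts were counted in place on 4 Visium capture areas, in which barcoded spots on a slide capture the 3′ ends of RNA from the tissue above them, and 2 brain slices lay on each area. PT injury makes a small ischaemic lesion in the cortex by illuminating a light-sensitive dye in the blood. The first area held a wild-type (WT) slice at rest and a WT slice at 2 days post-injury (dpi), the second 2 WT slices at 7 dpi, the third 2 WT slices at 21 dpi, and the fourth 2 slices at 21 dpi from Cthrc1(creER); R26(DTA) mice, called deleter mice here. In deleter mice, tamoxifen makes cells that express Cthrc1, a gene of profibrotic myofibroblasts, produce diphtheria toxin A. The methods list 1 mouse per slice and state that the deleter mice were set aside because no deletion was detectable. Rest and 2 dpi are thus single slices without a replicate, and from 7 dpi on the capture area cannot be told apart from time and genotype. For age, the methods give only a general range in weeks that covers mice of both sexes in all experiments.

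A B cell exports its antibody after it has matured into a plasma cell, which transcribes the genes of 1 heavy chain and 1 light chain at very high rates. Class switching replaces the constant region of the first isotype, IgM, by that of an IgG, IgE or IgA. IgA polymers that carry the J chain are the main antibodies of mucosal surfaces, and IgA plasma cells are also known from the meninges around the brain. A spot covers several cells, so fewer or more plasma cells and less or more RNA per cell cannot be told apart. Since 1 UMI stands for 1 captured 3′ end whatever the gene's length, UMIs of different genes are set side by side directly, although genes can differ in how well their ends are captured.

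The heavy-chain constant genes lie next to each other on chromosome 12 of GRCm38 (also called mm10, GENCODE annotation), from 113254830 to 113422730 on the minus strand, a stretch of 167.9 kb. Ighm (113418558 to 113422730) lies at one end and Igha (113254830 to 113260236) at the other, with the IgG genes between them, in the order Ighg3, Ighg1, Ighg2b and Ighg2c. Igkc lies on chromosome 6 from 70726435 to 70726966 on the plus strand, and Jchain on chromosome 5 from 88519809 to 88527891 on the minus strand. The lambda genes lie on chromosome 16, with Iglc2 from 19198396 to 19200351, Iglc3 from 19065230 to 19065681 and Iglc1 from 19061618 to 19062071, all on the minus strand.

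Of the lambda constant genes, Iglc2 and Iglc3 are near copies of each other in the stretch shown here, which bears on how well reads can be assigned to the member Iglc2. The last 90 coding bases of each are shown from the GRCm38 genome, 5′ to 3′ on the coding strand. Capitals mark the 29 positions at which the 3 sequences are not all the same.
Iglc1: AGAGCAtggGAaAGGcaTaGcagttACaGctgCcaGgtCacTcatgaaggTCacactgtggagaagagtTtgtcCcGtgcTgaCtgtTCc
Iglc2: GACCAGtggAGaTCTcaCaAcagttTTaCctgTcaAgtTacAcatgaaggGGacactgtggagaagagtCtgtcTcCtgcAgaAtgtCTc
Iglc3: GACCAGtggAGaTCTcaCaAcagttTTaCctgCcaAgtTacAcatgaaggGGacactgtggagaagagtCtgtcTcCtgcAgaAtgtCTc
In this stretch Iglc1 differed from Iglc2 at 29 positions and from Iglc3 at 28. Iglc2 and Iglc3 differed at only 1. Reads of Iglc1 can therefore be told from those of Iglc2, whereas the split between Iglc2 and Iglc3 is uncertain.

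Counts over tissue ranged from 11332780 to 23677298 UMIs per slice, over 827 to 1726 spots. The median per spot was 2633.5 UMIs at 2 dpi and between 12447 and 16158 in the other slices, and 4 spots, all in WT slice 1 at 21 dpi, had no UMI. The summed neuron markers Snap25, Slc17a7, Gad1 and Syt1 reached 23.2 to 44.7 UMIs per 10000 in the 8 slices, and each of the 4 was detected in every slice. Fibrotic spots numbered 3 at rest, 26 at 2 dpi, 112 and 392 at 7 dpi, 170 and 203 in the WT slices at 21 dpi and 193 and 274 in the deleter slices. Col1a1-free spots numbered 228 to 1641 per slice. The female-specific transcript Xist had 1013 to 1597 UMIs in each slice at rest, 2 dpi and 7 dpi and in deleter slice 1, but 4, 1 and 19 UMIs in the WT slices at 21 dpi and deleter slice 2, where the Y-linked Ddx3y reached 805 to 1323 UMIs. The WT comparison of 7 with 21 dpi thus also crossed sex, which cannot be told apart from time in the WT mice. Between 1564 and 1959 barcodes were shared by any 2 areas, because every Visium area is printed with the same set.

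Igkc was almost absent from fibrotic spots until 7 dpi and had the most UMIs of all members there in each of the 4 slices at 21 dpi. Fibrotic spots held 0 Igkc UMIs at rest and 0 at 2 dpi, 1 and 8 UMIs in the slices at 7 dpi, 1615 and 2845 in the WT slices at 21 dpi, and 2555 and 10306 in the deleter slices. The corresponding levels were 0.012 and 0.018 UMIs per 10000 at 7 dpi, 7.22 and 9.97 in the WT slices at 21 dpi, and 9.94 and 28.4 in the deleter slices. Every slice at 21 dpi lay above both slices at 7 dpi, and deleter slice 2 lay above the other three. In the WT slices 23.3% of 12912 genes tested had levels at 21 dpi that lay above those at 7 dpi without overlap. The exact 95% Poisson interval of the lowest value at 21 dpi was 6.87 to 7.58 UMIs per 10000, and that of the higher value at 7 dpi was 0.008 to 0.036. Such intervals cover counting error only, and so do the other intervals given here. With only 3 fibrotic spots at rest, a count of 0 allowed a level of up to 1.35 UMIs per 10000 there, and up to 0.533 at 2 dpi. Igkc was present in 1 of 112 and 6 of 392 fibrotic spots at 7 dpi, 98 of 170 and 143 of 203 in the WT slices at 21 dpi, and 136 of 193 and 254 of 274 in the deleter slices.

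Detection of Igkc in fibrotic spots was also described at equal depth. After every spot had been thinned to 1000 UMIs, Igkc remained detectable in 18.2% and 23.6% of fibrotic spots in the WT slices at 21 dpi, 27.5% and 54.4% in the deleter slices, and 0% in both slices at 7 dpi. The unthinned shares were 57.6%, 70.4%, 70.5% and 92.7% at 21 dpi and 0.893% and 1.53% at 7 dpi. No fibrotic spot at 7 or 21 dpi was too shallow for this thinning. Before it, fibrotic spots at 7 dpi held only 1 and 8 Igkc UMIs, so the 0% there adds no information.

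**Figure D1:**
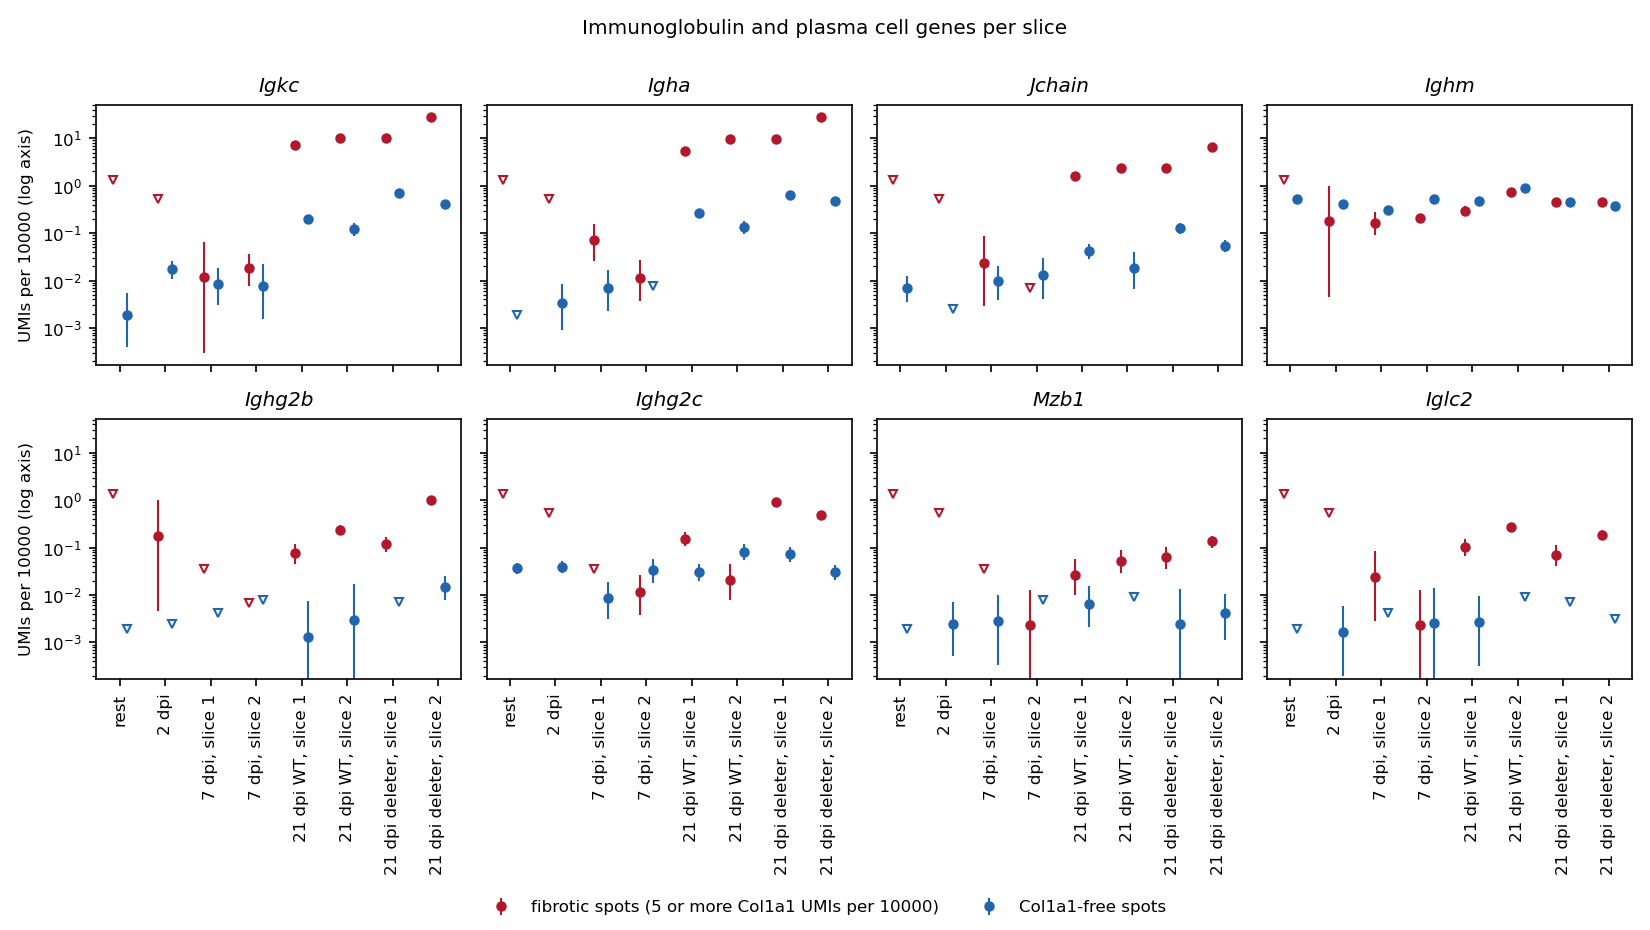
UMIs per 10000 (log axis) of 8 members in fibrotic spots (red) and Col1a1-free spots (blue) of each of the 8 slices. Bars are exact 95% Poisson intervals, and open triangles mark slices with 0 UMIs at the level that 3 UMIs would give. Igkc reached 7.22 to 28.4 UMIs per 10000 in fibrotic spots at 21 dpi, whereas Ighm was present in Col1a1-free spots of every slice.

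Igha, the IgA heavy chain, followed Igkc. Fibrotic spots held 6 and 5 Igha UMIs at 7 dpi, 1216 and 2706 in the WT slices at 21 dpi, and 2470 and 9996 in the deleter slices, or 5.44, 9.48, 9.61 and 27.5 UMIs per 10000 at 21 dpi. In the same spots the ratio of Igha to Igkc UMIs was 0.75, 0.95, 0.97 and 0.97. It was present in 40 of 40, 26 of 26, 61 of 61 and 178 of 178 spots with at least 10 Igkc UMIs. In the fit of edgeR's quasi-likelihood model to WT fibrotic spots, the log2 fold change from 7 to 21 dpi was 8.95 ± 0.32 (SE, n = 2 slices per time point) for Igkc and 8.37 ± 0.52 for Igha. Of the 10 members, 6 passed the filter on low counts in this fit, 7 in the fit of fibrotic against Col1a1-free spots and 8 in that of deleter against WT slices, and for genes with 3 UMIs or fewer on one side no fitted value is given. With 9 alternative settings the log2 fold change of Igha ranged from 6.69 to 9.33 and that of Igkc from 7.95 to 9.41.

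In fibrotic spots at 21 dpi, Jchain stood in nearly constant proportion to Igkc. Its UMIs in fibrotic spots were 2 and 0 at 7 dpi, 366 and 669 in the WT slices at 21 dpi, and 598 and 2359 in the deleter slices. These are levels of 1.64, 2.34, 2.33 and 6.50 UMIs per 10000 at 21 dpi. Jchain had 22.7, 23.5, 23.4 and 22.9 UMIs per 100 Igkc UMIs in fibrotic spots of the 4 slices, although their Igkc level varied from 7.22 to 28.4 UMIs per 10000. In Col1a1-free spots the ratio was 20.9, 15.0, 17.8 and 13.2 UMIs per 100, from only 40 to 385 Igkc UMIs, and thus lower than in fibrotic spots of each slice. Before 21 dpi the proportion did not hold over whole slices. Jchain had 11 UMIs at rest against 3 of Igkc, and 2 at 2 dpi against 27. At 7 dpi it had 18 and 10 UMIs, against 18 and 14 of Igkc.

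The IgG genes had few UMIs, unevenly spread over the slices. Ighg2b, the IgG2b heavy chain, had 0 UMIs in both slices at 7 dpi, and 17, 68, 30 and 374 UMIs in fibrotic spots at 21 dpi (WT slices first). Col1a1-free spots held 1, 1, 0 and 14 UMIs. Ighg2c, the IgG2c heavy chain, had 34, 6, 237 and 179 UMIs in fibrotic spots at 21 dpi, and 0 and 5 at 7 dpi. Unlike Ighg2b, it was also found in Col1a1-free spots of every slice, with 59 UMIs at rest and 6 to 48 in the other 7 slices. Ighg1, the IgG1 heavy chain, had 1 and 2 UMIs in the deleter slices and 0 in the other 6 slices. Ighg3, the IgG3 heavy chain, had 0 to 3 UMIs per slice. Of the heavy-chain genes outside the set, Ighe (IgE) had 0 UMIs in all slices and Ighd (IgD) 4 to 9 UMIs per slice.

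As shares of all heavy-chain constant UMIs in fibrotic spots at 21 dpi, Igha made up 91.1% (exact 95% binomial interval 89.4 to 92.6) and 90.3% (89.2 to 91.4) in the WT slices, and 86.5% (85.2 to 87.7) and 93.3% (92.8 to 93.8) in the deleter slices. Ighm accounted for 5.02%, 7.14%, 3.99% and 1.51%, Ighg2b for 1.27%, 2.27%, 1.05% and 3.49%, and Ighg2c for 2.55%, 0.20%, 8.30% and 1.67%. Igha thus led in every slice, while the order of the 2 IgG2 genes differed between slices. In WT slice 2 the 6 fibrotic Ighg2c UMIs lay in 6 spots. Their level, 0.021 UMIs per 10000, was below the 0.082 in Col1a1-free spots, so Ighg2b is set beside an unraised Ighg2c level there. Without Ighm in the total, because its transcripts were also present without light chains as described further on, Igha reached 90.1% to 97.3%. Ighg2c, which at rest was likewise found in spots without Igkc, was kept in this total. Over whole slices at 21 dpi, Igha made up 73.5%, 72.3%, 79.2% and 89.1%, and Ighm 23.0%, 24.5%, 11.8% and 5.84%. Over whole slices before 21 dpi the order was the opposite, with Ighm at 92.7% at rest, 89.3% at 2 dpi and 92.0% and 92.9% at 7 dpi. At 7 dpi, Igha had 20 and 6 UMIs over the whole slices.

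**Figure D2:**
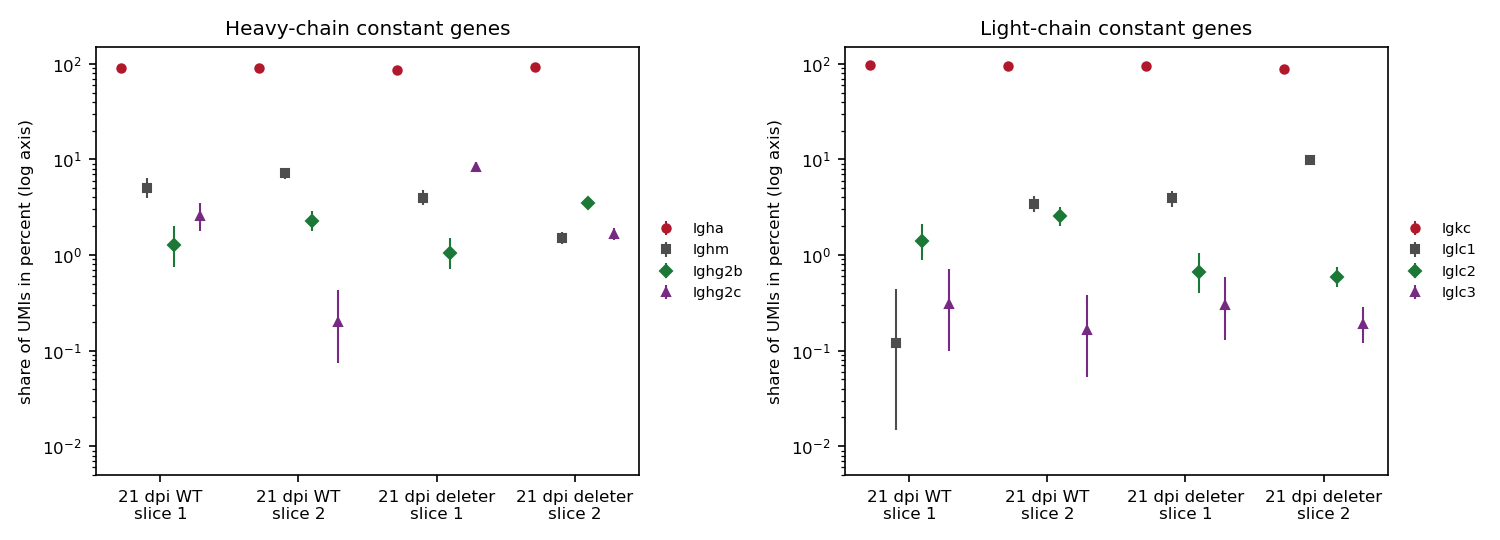
Share of each heavy-chain constant gene (left) and light-chain constant gene (right) in percent (log axis) in fibrotic spots of the 4 slices at 21 dpi, with exact 95% binomial intervals. Igha took 86.5% to 93.3% of heavy-chain UMIs and Igkc 89.3% to 98.2% of light-chain UMIs, while Iglc1 varied from 0.12% to 9.97%.

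Light chains were mostly kappa, at 98.2%, 93.9%, 95.1% and 89.3% of light-chain constant UMIs in fibrotic spots at 21 dpi. Iglc2, the lambda member of the set, had 2 and 1 UMIs at 7 dpi, 23 and 77 in the WT slices at 21 dpi and 18 and 68 in the deleter slices. Its level did not order the slices as Igkc did, since WT slice 2 was highest with 0.270 UMIs per 10000 and deleter slice 2 had 0.187. The paralogue Iglc1, which is not in the set, had 2 and 104 UMIs in fibrotic spots of the WT slices and 105 and 1151 in the deleter slices. Iglc1 and Iglc2, which can be told apart by the capitals in the printed sequences, were therefore spread unequally over the slices. Iglc3 had 5, 5, 8 and 22 UMIs in fibrotic spots, fewer than Iglc2 in each slice, although reads of these near copies may have been split between them.

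Mzb1 was detected at low counts. Fibrotic spots held 0 and 1 Mzb1 UMIs at 7 dpi, 6 and 15 in the WT slices at 21 dpi and 16 and 49 in the deleter slices, in 4, 10, 11 and 28 spots at 21 dpi. Per 1000 Igkc UMIs these were 3.72, 5.27, 6.26 and 4.75 Mzb1 UMIs. The order of the 4 slices by Mzb1 level (0.027, 0.053, 0.062 and 0.135 UMIs per 10000) was that of Igha.

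At 21 dpi these transcripts were concentrated in and beside the fibrotic tissue. Igkc levels in Col1a1-free spots were 0.202, 0.121, 0.718 and 0.403 UMIs per 10000, so that fibrotic spots of the same slice lay 35.8, 82.3, 13.8 and 70.5 times higher. For Igha these ratios were 20.6, 71.2, 14.8 and 57.4, and for Jchain 38.7, 129, 18.2 and 122. For Mzb1, WT slice 2 had 0 UMIs in its 283 Col1a1-free spots, where fibrotic spots were at least 5.79 times higher, taking 3 UMIs per slice as the limit. Fibrotic spots made up 12.7%, 24.5%, 21.2% and 17.2% of the spots and held 58.9%, 89.0%, 55.1% and 78.3% of the Igkc UMIs. In the edgeR fit with slice as a block, the log2 fold change of fibrotic over Col1a1-free spots was 5.34 ± 0.41 (SE, n = 4 slices) for Igkc, 5.03 ± 0.38 for Igha, 5.74 ± 0.41 for Jchain, 6.18 ± 0.25 for Ighg2b, 2.80 ± 0.63 for Ighg2c and -0.13 ± 0.14 for Ighm. The Ighm difference was smaller than its error. For Ighg2c the slices disagreed, with ratios of fibrotic to Col1a1-free levels of 5.01 and 0.257 in the WT slices and 12.8 and 16.3 in the deleter slices, and the log2 fold change was 0.67 in the WT slices alone.

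The fibrotic threshold of 5 Col1a1 UMIs per 10000 did not mark a step in Igkc that was shared by all slices. Just below it, in spots with 2 to 5 Col1a1 UMIs per 10000, the Igkc level was 1.98, 0.892, 6.39 and 5.29 UMIs per 10000. Just above it, at 5 to 10, the level was 12.4, 2.22, 2.23 and 5.81. Deleter slice 1 had the higher Igkc level below the threshold, and the other 3 slices had it above.

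Igkc levels were lower farther from fibrotic spots. In WT slice 2 they were 9.97 UMIs per 10000 in fibrotic spots, 0.855 at 1 step (neighbouring spots), 0.816 at 2, 0.455 at 3 to 4, 0.257 at 5 to 8 and 0.144 at 9 or more steps. Deleter slice 2 likewise went from 28.4 through 6.19, 3.31, 1.83 and 0.834 to 0.247. Deleter slice 1 stayed at 6.78 at 1 step and reached 0.105 at 9 or more. In WT slice 1 the level was higher again farther out, going from 0.395 at 3 to 4 steps to 0.981 at 5 to 8 steps. At 9 or more steps, Igkc at 21 dpi (0.105 to 0.247 UMIs per 10000) was above its level over the same distance at 7 dpi (0.0053 and 0.0049 UMIs per 10000, from 3 and 1 UMIs). Ighm showed no such decline, with 0.300, 0.750, 0.444 and 0.446 UMIs per 10000 in fibrotic spots and 0.691, 1.38, 0.983 and 0.374 at 9 or more steps.

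**Figure D3:**
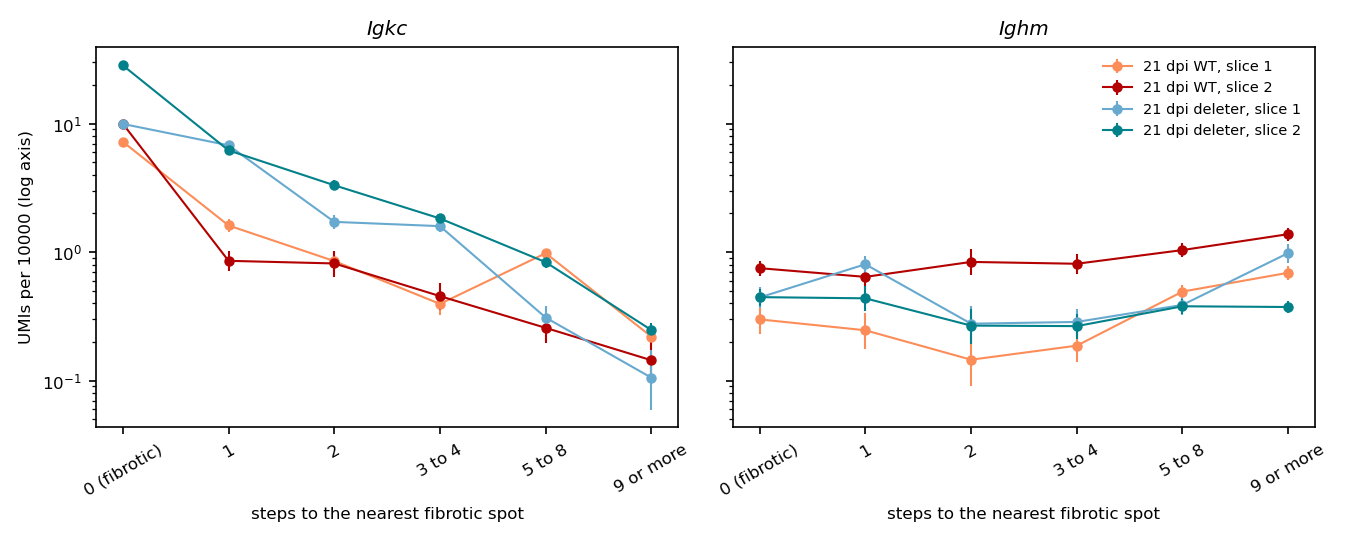
UMIs per 10000 (log axis) of Igkc and Ighm against the number of spot steps to the nearest fibrotic spot in the 4 slices at 21 dpi, with exact 95% Poisson intervals. Igkc was highest in fibrotic spots of every slice and higher at 5 to 8 than at 3 to 4 steps in WT slice 1, while Ighm was not lower far from fibrosis in 3 of the 4 slices.

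Antibody transcripts were unevenly spread over the spots of a slice. The spot with the most Igkc held 571 and 735 UMIs in the WT slices at 21 dpi and 491 and 1126 in the deleter slices, all fibrotic. The 5 highest spots held 46.3%, 65.8%, 34.8% and 34.0% of the Igkc UMIs of their slice. In the highest spot of deleter slice 2, Igkc made up 557 of every 10000 UMIs. Spots with at least 10 Igkc UMIs numbered 40, 26, 61 and 178, of which 19, 25, 36 and 119 were fibrotic, and there were 0 such spots before 21 dpi, where the highest count in a spot was 4. Positive spots lay together, since 88.6% to 96.9% of Igkc-positive spots had a positive neighbour, against 49.6% to 65.5% of negative spots.

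**Figure D4:**
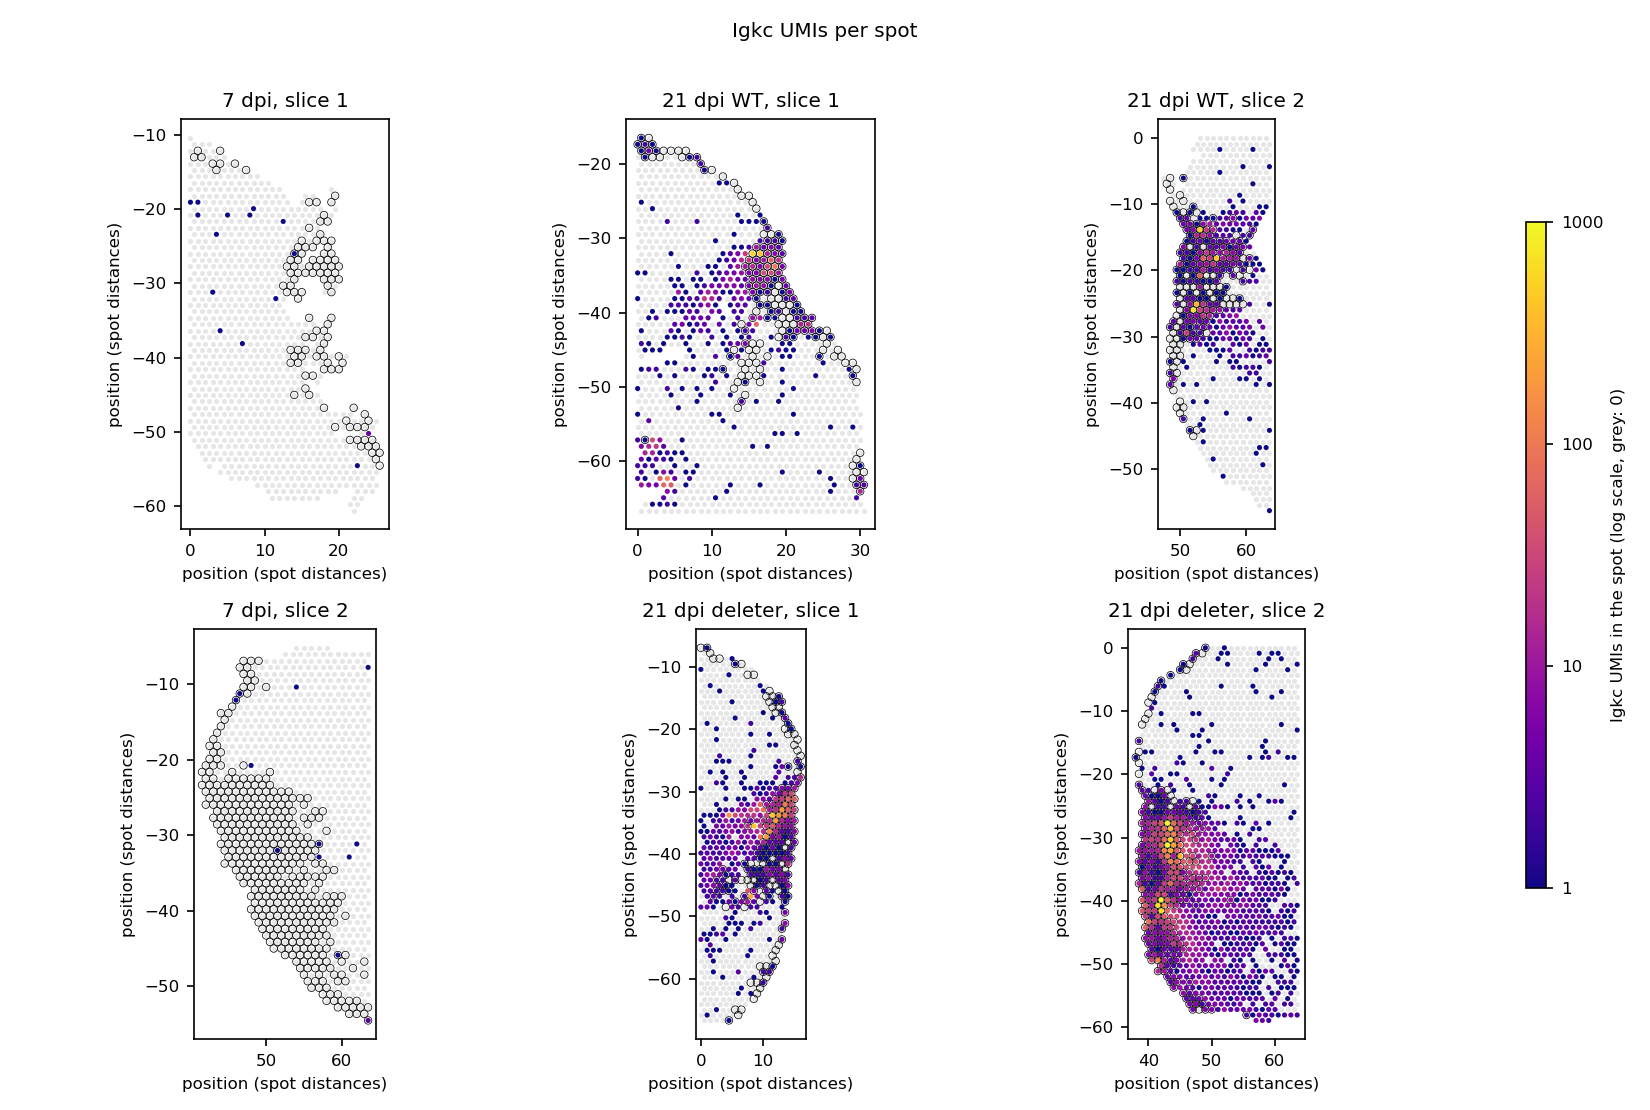
Position of every tissue spot in the slices at 7 and 21 dpi, in spot distances, coloured by Igkc UMIs (log scale, grey where 0), with fibrotic spots outlined in black. At 7 dpi no spot had more than 4 Igkc UMIs, whereas at 21 dpi foci of up to 1126 UMIs lay in fibrotic tissue and, in WT slice 1, also at a site apart from it.

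The site apart from fibrosis in WT slice 1 comprised 9 spots with at least 10 Igkc UMIs, 6 to 10 steps from any fibrotic spot. It was chosen after its values were seen. These spots held 382 Igkc UMIs, 13.9% of the slice, with a maximum of 130 in 1 spot, and 350 Igha UMIs. They had 24.9 Jchain UMIs per 100 Igkc UMIs and an Igha to Igkc ratio of 0.92, against 23.3 and 0.72 in the fibrotic spots of that slice with at least 10 Igkc UMIs. Col1a1 was at 0.594 UMIs per 10000 there, whereas Dcn, a proteoglycan gene of fibroblasts, was at 7.08, against 0.492 in the other 705 spots at least 5 steps from fibrosis. Ttr, which is highly expressed in the choroid plexus, was at 335 against 163. The other 3 slices had 0 spots of this kind. They also held less RNA of choroid plexus markers (Ttr, Folr1, Kl and Kcne2 summed over all spots). These were at 12.8 UMIs per 10000 in WT slice 2 and 7.73 and 48.0 in the deleter slices, against 116 in WT slice 1. The part of this difference in the result was not tested.

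Single foci differed in isotype. At least 10 Ighg2b UMIs were found in 1, 2, 1 and 5 spots, and Ighg2b exceeded Igha in 1, 2, 1 and 2 of them. In WT slice 2 such a spot held 45 Ighg2b, 56 Igkc and 8 Igha UMIs. At least 10 Ighg2c UMIs were found in 1, 0, 4 and 3 spots, and Ighg2c exceeded Igha in 1, 0, 3 and 0 of them. The strongest, in deleter slice 1, held 171 Ighg2c, 191 Igkc and 20 Jchain UMIs, but 4 Igha UMIs. A weaker one in WT slice 1 held 24 Ighg2c, 14 Igkc and 1 Igha UMIs, and these 24 were most of the 34 fibrotic Ighg2c UMIs of that slice. The highest Ighm count in a spot, 55 UMIs in deleter slice 1, came with 44 Igkc, 6 Jchain and 3 Igha UMIs. Light chains were likewise patchy. A spot of deleter slice 1 had 134 Iglc1, 84 Igha and 24 Jchain UMIs with 8 Igkc UMIs, and lambda exceeded kappa in 0 of 1, 1 of 3, 5 of 6 and 4 of 26 spots with at least 10 lambda UMIs. IgA with kappa was the commonest combination, and IgG2b, IgG2c, IgM and lambda IgA each led in some spots. These spots were picked on their counts and are given as a description.

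The variable genes, which encode the antigen-binding end of an antibody and were not used to choose the set, were rarely captured. The tables listed 348 of them, with 0, 1, 0 and 1 UMIs in the slices from rest to 7 dpi, and 54, 73, 69 and 192 UMIs at 21 dpi. With Ighm left out, this was about 1 per 100 constant-region UMIs (1.04, 1.08, 0.700 and 0.659). Between 11 and 25 variable genes were seen per slice at 21 dpi. Of 29 kappa variable genes seen, 20 occurred in 1 slice only and 0 in all 4. Of 14 heavy variable genes, 10 occurred in 1 slice only. Counts were too low for the absence of a gene from a slice to be informative. Iglv1, a lambda variable gene on chromosome 16 (19085017 to 19085500), led in every slice, with 30, 35, 55 and 122 UMIs, or 55.6%, 47.9%, 79.7% and 63.5% of variable UMIs. All lambda variable genes had 30, 39, 56 and 130 UMIs and all kappa variable genes 19, 26, 9 and 45. Yet Igkc made up 98.2%, 92.9%, 91.0% and 88.0% of light-chain constant UMIs over the same slices. Shares of variable UMIs therefore did not follow those of the constant genes, and how evenly variable genes were captured was not tested. The Iglv1 UMIs came from 17, 17, 17 and 66 spots, the farthest pair of which lay 37, 25, 21 and 44 steps apart. In WT slice 1, the spot with most Iglv1 (10 UMIs) held 403 Igkc, 17 Iglc2 and 0 Iglc1 UMIs.

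Transcription of immunoglobulin variable genes starts from promoters that carry an octamer, ATGCAAAT, bound by Oct factors and the coactivator that Pou2af1 encodes. The 250 bases before Iglv1, the leading variable gene, and before Jchain, the only member in the promoter table, are shown from GRCm38 (the genome and the RefSeq promoter table), 5′ to 3′ on the coding strand. Capitals mark the octamer, here as its reverse complement.
Iglv1: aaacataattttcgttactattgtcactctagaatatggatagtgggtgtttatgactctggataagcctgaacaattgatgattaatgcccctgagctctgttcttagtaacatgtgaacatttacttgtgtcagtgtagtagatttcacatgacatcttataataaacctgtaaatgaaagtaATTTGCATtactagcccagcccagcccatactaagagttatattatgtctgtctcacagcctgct
Jchain: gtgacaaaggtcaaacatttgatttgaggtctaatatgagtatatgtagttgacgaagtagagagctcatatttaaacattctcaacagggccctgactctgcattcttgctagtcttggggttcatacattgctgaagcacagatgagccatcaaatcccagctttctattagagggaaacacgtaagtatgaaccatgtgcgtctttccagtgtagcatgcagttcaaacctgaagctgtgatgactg
These are chr16:19085501-19085750 and chr5:88527898-88528147, both on the minus strand. The octamer, searched on both strands, ended 57 bases before the start of Iglv1 and was not present in the Jchain stretch. It occurred in 526 of 32851 promoters of the same length (1.60%), in the stretches before 223 of the 348 variable genes (64.1%), and before 33 of the 46 variable genes with a UMI at 21 dpi (71.7%). A match of letters is a description and shows no binding.

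Ighm did not follow the other members. It was the most abundant member at rest, with 853 UMIs in 374 of 1017 spots, while all light-chain constant genes together had 3 UMIs and 0 of the 374 spots held an Igkc UMI. Its level over whole slices was 0.522 UMIs per 10000 at rest, 0.395 at 2 dpi, 0.314 and 0.406 at 7 dpi, 0.410 and 0.941 in the WT slices at 21 dpi and 0.498 and 0.371 in the deleter slices. The slice at rest lay within the range of the injured slices. In fibrotic spots Ighm had 14 and 93 UMIs at 7 dpi and 67, 214, 114 and 162 at 21 dpi, or 0.165, 0.212, 0.300, 0.750, 0.444 and 0.446 UMIs per 10000, a log2 fold change of 1.43 ± 0.38 (SE, n = 2 slices per time point) from 7 to 21 dpi in the WT slices. The alternatives gave 0.60 to 1.92.

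At rest, Ighm was enriched in a deep cortical layer but not confined to it. Of 12339 genes, the 10 with the highest Pearson r with Ighm across the 1017 spots at rest were Pcp4 (0.45), Rprm (0.43), Syt6 (0.40), Gadd45a (0.38), Nptx1 (0.37), Trbc2 (0.37), Vxn (0.37), Tle4 (0.36), Diras2 (0.34) and Hs3st4 (0.34). Rprm, Syt6, Tle4 and Hs3st4 are known markers of cortical layer 6 neurons. In the other 7 slices, which did not choose these genes, r stayed above 0 in all slices for 9 of the 10, and in all but 1 for Gadd45a. For Rprm these values were 0.14 to 0.41. Spots share a library and differ in depth, so r is given as a description. In spots with at least 5 summed Rprm, Syt6, Foxp2 and Tle4 UMIs per 10000, Ighm was 4.77 times as high as in the remaining spots at rest, 3.80 times at 2 dpi, 4.26 and 7.97 times at 7 dpi, 4.19 and 2.77 times in the WT slices at 21 dpi and 2.49 and 3.62 times in the deleter slices. The Igkc level went the other way at 21 dpi, at 0.13 to 0.46 times that in the remaining spots. Of the deep-layer spots, 1 of 22, 4 of 40, 4 of 29 and 12 of 57 were fibrotic (WT slices first). Most fibrotic spots thus lay among the remaining spots, and their part in this ratio was not tested. Igkc-positive spots made up 18.2% of the layer against 27.6% elsewhere in WT slice 1, but 40% against 36.3% in WT slice 2. In the deleter slices these shares were 48.3% against 42.2% and 63.2% against 54.2%. At rest the spots of this layer numbered 30 and held 13.7% of the Ighm UMIs, and 35.0% of the 987 remaining spots were Ighm-positive too. This layer comparison was set after the values at rest had been seen. At 2 dpi the spots that met its cut had a median of 1481 UMIs, against 3012.5 in the remaining spots. Few marker UMIs were enough to meet the cut there, so it may not mark a layer at 2 dpi. Of these spots 22.5% were Ighm-positive at 2 dpi, against 17.4% of the remaining spots, while 96.7% were at rest.

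**Figure D5:**
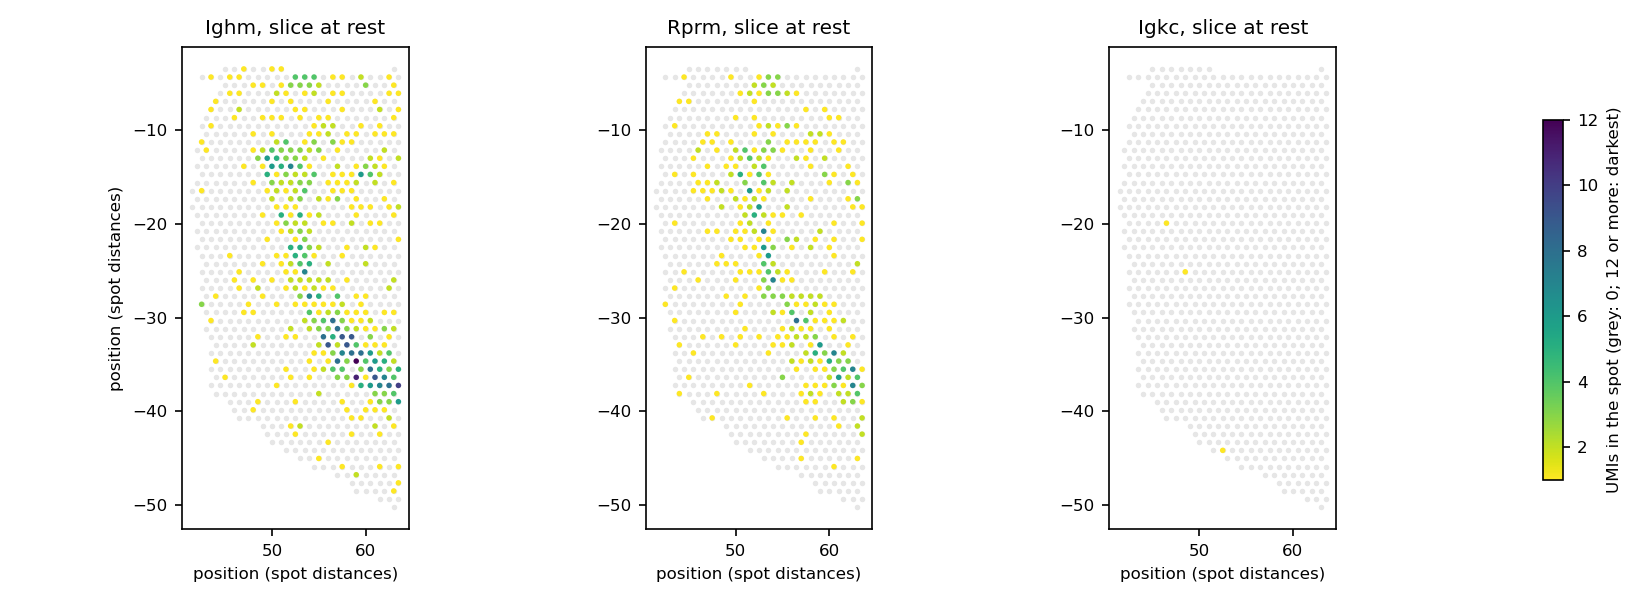
Spots of the slice at rest coloured by UMIs of Ighm (left), Rprm (middle) and Igkc (right), with grey where there was none and positions in spot distances. Ighm, with 853 UMIs, was enriched along the deep cortical band that Rprm marks but was also found outside it, and Igkc had 3 UMIs in the whole slice.

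The constant gene of the T cell receptor beta chain Trbc2 was enriched in the same layer, which held 12.5% of its UMIs at rest. Its level in the deep-layer spots was 3.15 to 8.27 times that of the remaining spots in the 8 slices. Ighg2c was 5.30 times as high there at rest and 8.85 times in slice 2 at 7 dpi, from only 9 and 4 UMIs in deep-layer spots. These spots held 2 of 49 Ighg2c UMIs at 2 dpi (0.047 against 0.037 UMIs per 10000) and 0 of 11 in slice 1 at 7 dpi. At 21 dpi the Ighg2c ratio was 2.92 and 2.47 in the WT slices and 0.361 and 0.747 in the deleter slices. Those ratios rest on only 4, 8, 5 and 8 UMIs in deep-layer spots, and the part of IgG2c foci in them was not tested. At rest, 0 of 54 Ighg2c-positive spots held an Igkc UMI, and the highest Ighg2c count in a spot was 3, against 171 in the IgG2c focus at 21 dpi. Whether the 3′ ends counted for Ighm, Ighg2c and Trbc2 in this layer belong to antibody or receptor transcripts was not tested.

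Other plasma cell markers were next set beside the members. Of 13 markers listed, 7 passed the filter on low counts in WT fibrotic spots at 7 and 21 dpi. In this comparison 3.90% of 12912 genes passed edgeR's adjusted threshold of 0.05 (2.30% higher and 1.60% lower at 21 dpi). None of the 7 was higher and 1, Tent5c, was lower, and their median log2 fold change was -0.04, against 0.00016 for all genes. Tent5c, a poly(A) polymerase that stabilizes immunoglobulin transcripts, had 0.933 and 0.917 UMIs per 10000 at 7 dpi and 0.492 and 0.515 at 21 dpi (log2 fold change -0.87 ± 0.17, edgeR adjusted p = 0.0203). Sdc1, the surface marker syndecan-1 (CD138), had 26 and 221 UMIs at 7 dpi already and 96 and 119 at 21 dpi, a log2 fold change of -0.04 ± 0.22. Slamf7, a lymphocyte surface receptor, had a log2 fold change of 0.76 ± 0.33 and did not pass (edgeR adjusted p = 0.279). The summed level of the 13 markers in fibrotic spots was 2.86 and 2.59 UMIs per 10000 at 7 dpi and 2.14 to 2.38 at 21 dpi, with Fcrl5 at 0 in all 6 slices. Markers closer to plasma cells were scarce. Tnfrsf17, the survival receptor BCMA, had 2 and 1 UMIs at 7 dpi and 3, 4, 3 and 8 at 21 dpi. Irf4, a plasma cell transcription factor, had 0 and 1, then 4, 8, 4 and 17 UMIs. Derl3, a factor of endoplasmic reticulum quality control, had 0 and 7, then 2, 11, 10 and 21 UMIs.

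From 7 to 21 dpi, the B cell markers that could be tested showed no rise like that of the members. Of 16 listed genes only Cd22 and Cd79b passed the filter, and both missed the threshold between 7 and 21 dpi, with log2 fold changes of 0.35 ± 0.25 and -0.58 ± 0.50. Ms4a1, which encodes the B cell antigen CD20, had at most 2 UMIs in fibrotic spots of any slice at 21 dpi. The summed B cell list was 0.437 and 0.300 UMIs per 10000 at 7 dpi and 0.329 to 0.468 at 21 dpi.

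The genes of the secretory pathway, on which antibody export depends, showed no common shift from 7 to 21 dpi. Of 15 tested, 0 were higher and 1 was lower, Edem1, which helps clear misfolded proteins (log2 fold change -0.86 ± 0.19, edgeR adjusted p = 0.034). Xbp1, the transcription factor of the secretory programme, went from 0.886 and 1.27 to 1.48 and 1.22 UMIs per 10000 and missed the threshold (log2 fold change 0.28 ± 0.20). Of 7 tested genes that bind or transport antibodies, 0 were higher and 1 was lower, the activating IgG receptor gene Fcgr4 (0.756 and 0.715 against 0.402 and 0.315 UMIs per 10000, log2 fold change -1.03 ± 0.20, edgeR adjusted p = 0.018). Pigr, the receptor that carries IgA polymers across epithelia, had 0 UMIs in fibrotic spots of all 8 slices.

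Of 6 tested genes that attract or sustain plasma cells, 2 were higher at 21 dpi and 0 lower. Cxcl12, a chemokine that retains plasma cells in bone marrow, was at 1.24 and 2.01 UMIs per 10000 at 7 dpi and 5.12 and 4.77 at 21 dpi (log2 fold change 1.58 ± 0.21, edgeR adjusted p = 0.00323). The deleter slices had 4.27 and 4.99, and the 3 fibrotic spots at rest 4.05 from 9 UMIs. Vcam1, an adhesion molecule, rose from 0.543 and 0.503 to 0.894 and 0.852 UMIs per 10000 (log2 fold change 0.76 ± 0.17, edgeR adjusted p = 0.0401). Tnfsf13, which encodes the survival factor APRIL, missed the threshold, with a log2 fold change of 0.37 ± 0.27. Of 5 T cell genes tested, Cd3d, Nkg7 and Trbc1 were higher, by log2 fold changes of 2.95 ± 0.53, 2.96 ± 0.53 and 3.06 ± 0.63. Cd3d, part of the T cell receptor complex, had 1 and 5 UMIs at 7 dpi and 23 in each WT slice at 21 dpi. Markers of other cell types moved with these genes. Of 5 fibroblast markers 2 were higher, Dcn (log2 fold change 1.54 ± 0.18, close in size to that of Cxcl12) and Lum (1.23 ± 0.21), and so were 3 of 3 astrocyte markers (Gfap, Slc1a3 and Aqp4, median 1.08), 1 of 5 myeloid markers (Lyz2) and 2 of 4 haemoglobin genes, whereas 1 of 4 neuron markers, Slc17a7, was lower. The summed fibroblast markers were at 33.2 and 61.4 UMIs per 10000 at 7 dpi and 65.2 and 90.8 at 21 dpi, and the summed astrocyte markers at 8.83 and 9.22, then 17.3 and 19.8, and their part in the result was not tested. Of the companion genes, Cxcl12 kept its call with DESeq2 and without each slice in turn and lost it with a threshold of 2 Col1a1 UMIs per 10000 (edgeR adjusted p = 0.0931). Cd3d, Nkg7, Trbc1, Vcam1, Tent5c, Edem1 and Fcgr4 each lost it with DESeq2 (adjusted p from 0.0589 to 0.256). Without slice 1 at 7 dpi all 7 of these lost it, and without slice 2 at 7 dpi all but Edem1. Vcam1 also lost it without WT slice 1 at 21 dpi (edgeR adjusted p = 0.0609) and Trbc1 without WT slice 2 (edgeR adjusted p = 0.255).

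Within slices at 21 dpi, fibrotic and Col1a1-free spots differed in most genes. Of 13334 tested, 69.6% passed the edgeR threshold, with 35.2% higher and 34.3% lower in fibrotic spots, and the companion lists are read against that. Of 7 plasma cell markers tested, 6 were higher, among them Slamf7 (log2 fold change 6.57 ± 0.38), Sdc1 (5.08 ± 0.22) and Tent5c (3.23 ± 0.16), and Ell2, an elongation factor, was not (-0.09 ± 0.11). Summed over the 13 listed, these markers were already higher in fibrotic spots at 7 dpi. They had 2.86 and 2.59 UMIs per 10000 there, against 0.887 and 1.07 in Col1a1-free spots. Of 15 secretory genes, 12 were higher, with a median log2 fold change of 1.00 over the list against 0.0036 for all genes, led by Fkbp11 (3.32 ± 0.25) and Edem1 (2.05 ± 0.10). All 7 tested antibody receptor and transport genes were higher, with a median of 3.39, and so were the 5 tested homing and survival genes, with Cxcl12 at 3.75 ± 0.12 and Tnfsf13 at 3.44 ± 0.16. Cd22 and Cd79b were higher too (3.83 ± 0.26 and 3.88 ± 0.50). Of 7 T cell genes, 5 were higher and 1, Trbc2, was lower (-1.18 ± 0.16, edgeR adjusted p = 0.000116). Fibroblast markers (Col1a1, which defines the spots, among them) and myeloid markers changed in the same direction, with 5 of 5 and 5 of 5 higher (medians 6.56 and 3.74), and their part in the result was not tested.

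Across fibrotic spots, Igkc and Igha followed Jchain most closely among the members, with Pearson r of 0.77 to 0.84 and 0.75 to 0.81 in the 4 slices at 21 dpi. For Iglc2 r was 0.49 to 0.54, for Mzb1 0.35 to 0.55 and for Ighm 0.04 to 0.22. Among 12096 genes outside the immunoglobulin loci and the set, the 10 most like Jchain by mean r over the WT slices were Cxcl9 (0.40), Gbp2 (0.39), AW112010 (0.36), Cd5l (0.34), Gm21188 (0.31), Ccl8 (0.30), Lat (0.29), H2-Aa (0.29), Gimap3 (0.29) and Sfrp4 (0.28). Cxcl9 encodes a chemokine and Gbp2 a GTPase that interferon-γ induces, Cd5l a macrophage protein that binds IgM, and H2-Aa a chain of MHC class II. In the deleter slices, which did not choose them, r was 0.26 and 0.32 for Cxcl9, 0.37 and 0.49 for Sfrp4, 0.39 and 0.27 for Ccl8, and 0.01 and 0.10 for Gm21188. It was 0.31 and 0.35 for H2-Aa, 0.20 and 0.17 for Gbp2, 0.17 and 0.19 for AW112010, and 0.13 and 0.28 for Cd5l. For Lat it was 0.17 and 0.18, and for Gimap3 0.18 and 0.20. The spots of a slice share a library, and r says nothing of a common function.

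Deleter and WT slices at 21 dpi were then set side by side. Igkc levels in fibrotic spots overlapped between the groups (7.22 and 9.97 against 9.94 and 28.4 UMIs per 10000), and so did those of Jchain, Ighg2b, Ighm and Iglc2. Those of Igha, Ighg2c and Mzb1 did not, which makes 3 of the 8 members tested, against 37.5% of all 12945 genes tested. The nearest Igha levels of the groups, 9.48 in WT slice 2 and 9.61 in deleter slice 1, had counting intervals that overlapped (9.13 to 9.85 and 9.24 to 10.0). The nearest Mzb1 levels, in the same 2 slices, rested on 15 and 16 UMIs. Their intervals overlapped too (0.029 to 0.087 and 0.036 to 0.101). The log2 fold change of deleter over WT was 1.17 ± 0.42 (SE, n = 2 slices per genotype) for Igkc, 1.33 ± 0.46 for Igha, 1.16 ± 0.42 for Jchain, 3.12 ± 0.59 for Ighg2c and -0.25 ± 0.35 for Ighm. Without deleter slice 2 the value for Igkc was 0.22, that for Igha 0.37 and that for Jchain 0.23, and that for Ighg2b changed sign, from 1.87 ± 0.87 to -0.46. Without WT slice 2 the value for Ighm was 0.58 and that for Ighg2c 2.20, and without WT slice 1 that for Ighg2c was 5.03. Of 12945 genes 0.00772% passed the edgeR threshold in this comparison, which is the single gene Esr1, the oestrogen receptor gene, named after its value was seen and lower in the deleter slices (-4.71 ± 0.32, edgeR adjusted p = 0.0116). None of the companion genes passed. For Cxcl12 the log2 fold change was -0.09 ± 0.12. Genotype cannot be told apart from capture area here, and the sex of the WT slices (both male by Ddx3y) and the deleter slices (1 of each) also differed.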

How the data were processed

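Visium libraries of 4 capture areas were analysed. The authors aligned reads to mm10 with Space Ranger 2.0.0 and deposited UMI counts for each gene in each spot, without normalization. Spots marked as tissue were joined into connected pieces, each taken as 1 slice. Every area gave 2. Rest (1017 spots) and 2 dpi (1726 spots) were told apart by piece size, since the labels name both for 1 area. The members and gene lists were chosen with earlier results of these data known.

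UMIs were summed per slice over fibrotic spots (at least 5 Col1a1 UMIs per 10000), spots between, and Col1a1-free spots. Sums were tested with edgeR 4.0.16 (TMM, filterByExpr, quasi-likelihood test, Benjamini-Hochberg, threshold 0.05), and SE is the log2 fold change over the square root of F. The slice, 1 mouse, was the unit. On simulated counts with 200 genes changed 8-fold, the step recovered 200 of 200 in each comparison, with 7, 13 and 11 false calls. That recovery did not carry over to every measured gene with a change of this size. Between deleter and WT slices Ttr missed the threshold despite its log2 fold change (-3.24 ± 0.68, edgeR adjusted p = 0.671). Smaller changes were not simulated, so how many of those would be found was not tested. Intervals are exact Poisson or binomial at 95%. The floor is 3 UMIs per slice. Genes named were all members, companion genes past the threshold or with most UMIs per list, and the 10 most like Jchain. Ttr, Dcn, Trbc2, Esr1, scarce markers given by their UMIs, the genes like Ighm and single foci were chosen after values were seen. Alternatives were DESeq2 1.42.0, no filter on low counts, Col1a1 minimums of 2 and 10, spots with at least 1000 UMIs and each slice left out. Figures used matplotlib 3.10.9. No per-sample column was left unused (0).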

Additional observations from a re-analysis of the deposited data

How the results depend on the processing

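Genes called between 7 and 21 dpi numbered 503 in the main analysis, 304 with DESeq2, 1123 without the filter on low counts and 187 at a Col1a1 minimum of 2, and 236 to 863 when a slice was left out (266 and 236 without slices 1 and 2 at 7 dpi, 863 without WT slice 1 at 21 dpi). Between deleter and WT slices, 1 gene was called, against 8 with DESeq2, 270 without the filter, 0 at a minimum of 2 and 4 at a minimum of 10 Col1a1 UMIs per 10000, and 1 to 155 when a slice was left out (155 and 18 without WT slices 1 and 2, 5 without deleter slice 2). At the minimum of 2, edgeR gave 460 genes an unadjusted p under 0.05. Between fibrotic and Col1a1-free spots, all counts stayed within 1.5 times the main 9277, with 8352 to 9004 when a slice was left out. The causes were not tested.

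Igkc in fibrotic spots of the WT slices 1 and 2 and deleter slices 1 and 2 was 4.97, 6.16, 8.29 and 18.2 UMIs per 10000 at a minimum of 2, and 3.79, 14.7, 13.5 and 40.6 at a minimum of 10. The share of Igha among heavy-chain UMIs was 73.5%, 72.3%, 79.2% and 89.1% over all tissue spots, and 77.1%, 78.8%, 87.8% and 91.5% without the 5 spots with most heavy-chain UMIs. Of the levels of members under alternatives, 261 moved by less than their counting interval and 49 by more. Of the companion log2 fold changes, 805 kept their side of the threshold, 31 lost the threshold and 10 reached it. Direction was compared only for genes past the threshold in the main analysis. Low counts of Mzb1, Ighg1, Ighg3, Iglc2 and the variable genes limit what depth can show. Groups of mice were not paired, since each slice came from a different mouse at 1 time point. Fibrotic and Col1a1-free spots were paired within slices, and 9383 genes were called without that slice block.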
